A study of Mus musculus with 165 samples.

Results

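The 8 hours between 72h and 80h of neutrophil differentiation were examined in PUER cells by comparing the 3 GCSF-OHT libraries collected at 80h with the 3 collected at 72h, 6 libraries chosen by their labelled cytokine, OHT treatment and hour from a series of 78 GCSF-OHT and 81 IL3-OHT libraries, 3 of GCSF cells before OHT and 3 of undifferentiated cells in IL3. PUER cells are a mouse myeloid progenitor line that lacks *Spi1*, the gene for the myeloid master regulator PU.1, and carries PU.1 fused to an estrogen receptor domain, so that the protein becomes active when 4-hydroxytamoxifen (OHT) is added. Both groups had IL3 replaced by GCSF (10 ng/ml), the cytokine of neutrophil production, 48 hours before OHT (100 nM), and both were collected after OHT had been renewed with part of the medium at 40 h and before its renewal at 88 h. IL3-OHT cells, which stay in IL3 (5 ng/ml) and receive 200 nM OHT, served for comparison at 72h and 80h, as did GCSF-OHT cells at 64h and 88h, with 3 libraries each. Every group derives from 1 immortalized line, and each hour had a culture plate of its own, so plate and hour cannot be told apart. Whether the IL3 and GCSF cultures of an hour shared a plate is not given in the sources used here. Nor do they state whether the 88h wells were collected before or after the renewal at 88 h.

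The 6 libraries held between 21179738 and 23335242 reads, and a count of 3 reads corresponded to a normalized count of 2.77 to 3.05. Values below are normalized counts, that is, reads per gene scaled for library size. In RNA from whole cultures, fewer cells of a kind and less RNA per cell cannot be told apart. Replicates of a group differed by more than counting noise, so none was treated as a repeat of another. Neutrophil markers were expressed at both hours. The 18 on the list summed to 860285 to 941568 at 72h and 924343 to 974239 at 80h, led by *S100a9*, *S100a8* and *Elane*. At 72h these 3 had means of 230141, 159441 and 146969 in GCSF-OHT and of 113565, 91505 and 79113 in IL3-OHT. High levels of these genes were therefore not particular to GCSF cells. *Csf3r*, on the same list, had means of 9103 and 1031. The list also held genes at low levels, such as *Ly6g*, with no more than 17.96 in any of the 6 libraries. Markers of other lineages were present in part. The macrophage and monocyte list summed to 19678 to 20598 at 72h and 18773 to 21081 at 80h, led by *Ly6c2*, *Cx3cr1* and *Ccr2*, the mast cell and basophil list to 3179 to 3315 and 3062 to 3170, led by *Kit*, *Hdc* and *Mcpt8*, and the megakaryocyte list to 461.7 to 593.5 and 494.3 to 594.8. The erythroid list stood at 21.36 to 31.63 and 38.79 to 67.85. At 0 in all 6 libraries were 5 of 20 macrophage and monocyte markers (*C1qa*, *C1qb*, *C1qc*, *Ms4a7* and *Timd4*), 8 of 15 mast cell and basophil markers, 3 of 10 megakaryocyte markers and 6 of 12 erythroid markers, among them *Hbb-bs*, *Hbb-bt* and *Hba-a2*.

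*Spi1*, whose row can also hold the transcript of the fusion, had normalized counts of 10420, 10262 and 10529 at 72h and of 8554, 8732 and 9230 at 80h. The groups did not overlap, with a log2 fold change of -0.24 ± 0.05 (SE, n = 3 per group, adjusted p = 0.00013 by limma), a size below the fold threshold used here. GCSF cells before OHT held more, between 12464 and 12811 (n = 3).

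Across 17414 genes tested, 283 (1.63%) were differentially expressed genes (DEGs) between 72h and 80h, defined by an adjusted p below 0.05 and an absolute log2 fold change above 0.58. Of these, 71 (0.408% of the genes tested) were lower at 80h and all others (1.22%) were higher. Without the fold threshold, 1004 genes were higher and 658 lower. The log2 fold changes just inside and just outside the threshold were 0.58 and 0.579, and 104 of the DEGs had a mean under 100 in both groups. DEGs that were higher had a median transcript GC content of 52.7%, against 49.7% for those that were lower and 49.9% for all genes. After a GC correction, 78 genes were lower and 73.3% of the DEGs were higher.

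**Figure D1:**
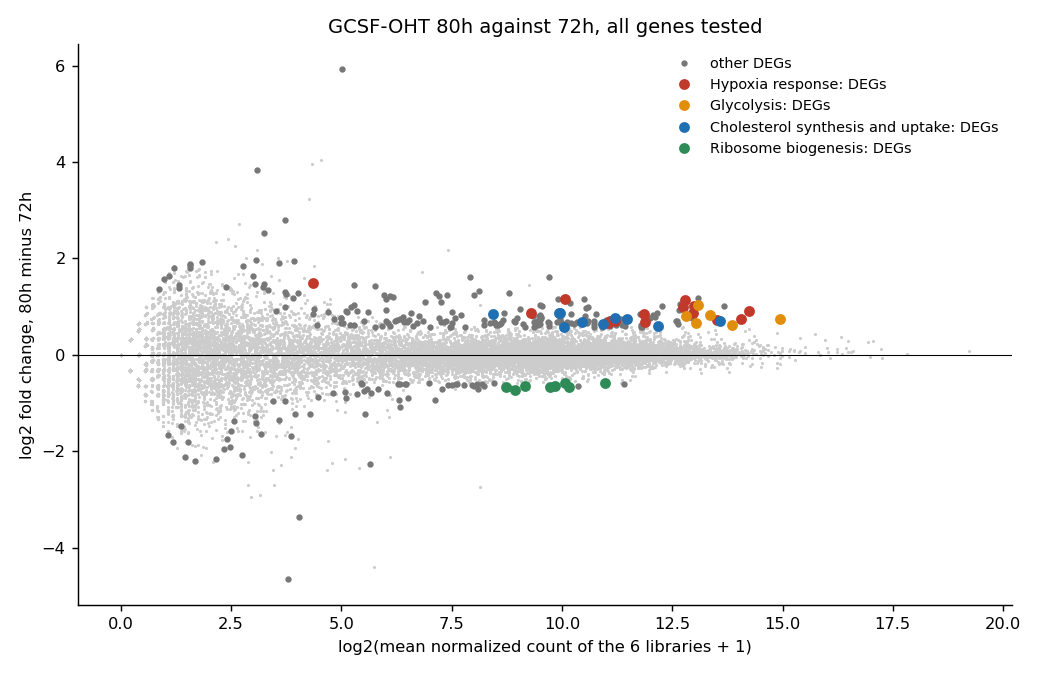
The log2 fold change of 80h over 72h in GCSF-OHT (y axis) against the log2 mean normalized count of the 6 libraries (x axis), with 1 point per gene tested. The coloured DEGs of 4 lists show 15 hypoxia response, 6 glycolysis and 10 cholesterol genes above 0 and 8 ribosome biogenesis genes below it.

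Genes of the hypoxia response, glycolysis and cholesterol synthesis were among those that rose, and genes of ribosome assembly among those that fell. When oxygen is scarce, prolyl hydroxylases stop marking the HIF transcription factors for destruction, and HIF then binds short hypoxia response elements and switches on glucose uptake, glycolysis and mitochondrial turnover. Cholesterol synthesis genes are controlled together by SREBP2, which is released when membrane sterol is low. Ribosome biogenesis factors, many of them MYC targets, process and assemble ribosomal RNA in the nucleolus and are most abundant in growing cells.

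The 250 bases before the RefSeq transcription start of 3 genes that rose and are known HIF targets are shown because they hold the short core of the hypoxia response element, ACGTG or GCGTG on either strand, with each match in capitals.

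*Bnip3*, chr7:138909507-138909756, minus strand, GRCm38.p6: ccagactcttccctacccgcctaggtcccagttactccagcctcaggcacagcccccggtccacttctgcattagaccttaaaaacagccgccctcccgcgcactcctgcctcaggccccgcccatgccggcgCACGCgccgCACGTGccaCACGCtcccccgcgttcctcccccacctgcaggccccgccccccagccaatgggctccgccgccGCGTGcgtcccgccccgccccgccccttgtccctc
*P4ha2*, chr11:54100674-54100923, plus strand, GRCm38.p6: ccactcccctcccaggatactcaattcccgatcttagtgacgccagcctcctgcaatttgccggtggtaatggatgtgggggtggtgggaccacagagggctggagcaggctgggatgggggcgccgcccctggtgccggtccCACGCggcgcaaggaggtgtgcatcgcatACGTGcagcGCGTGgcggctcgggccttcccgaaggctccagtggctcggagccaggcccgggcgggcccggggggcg
*Slc2a1*, chr4:119108495-119108744, plus strand, GRCm38.p6: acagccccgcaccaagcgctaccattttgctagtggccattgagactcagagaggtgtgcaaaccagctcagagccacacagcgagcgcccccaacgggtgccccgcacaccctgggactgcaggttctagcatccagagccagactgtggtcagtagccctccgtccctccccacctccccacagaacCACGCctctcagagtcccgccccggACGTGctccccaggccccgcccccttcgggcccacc

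The *Bnip3* window held 5 matches, the nearest beginning 35 bases before the start, where matches on opposite strands within CACGTG count separately. The *P4ha2* window held 3 and the *Slc2a1* window 2. RefSeq starts differ from the GENCODE gene positions given below. The *P4ha2* window lies wholly inside the gene as GENCODE places it, and the *Bnip3* and *Slc2a1* windows partly overlap theirs. Of 23 hypoxia response genes, 19 had a promoter in the RefSeq table, and 17 of these (89.5%) held a match, against 38.6% of all 27025 promoters. Among glycolysis enzymes, 18 of 25 did (72.0%). The sterol regulatory element TCACNCCAC was present in 1 of 29 cholesterol gene promoters (3.45%, all promoters 1.04%), and the E-box CACGTG, which overlaps the hypoxia core ACGTG, in 3 of 59 ribosome biogenesis promoters (5.08%, all promoters 6.05%). The hypoxia list was chosen for its known response to hypoxia, so its share of matches is not a result about this step. Of its 12 DEGs with a promoter, 11 held a match, close to the share in the whole list. A match describes letters only and was not tested for use.

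Hypoxia response genes outside core glycolysis rose together. Of 23 members tested, 15 were DEGs, all higher at 80h, where the background in that direction was 1.22%, and the median log2 fold change was 0.70 against 0 for all genes. *Bnip3* (chr7:138890836-138909519, minus strand, GRCm38), a mitophagy receptor, had normalized counts of 5159, 4456 and 3695 at 72h and of 9845, 9858 and 9182 at 80h. The groups did not overlap, and the level was 2.19-fold higher at 80h (log2 1.13 ± 0.18, SE, adjusted p = 5.78e-07). *P4ha2* (chr11:54100095-54131665, plus strand), a collagen prolyl hydroxylase, rose from 722, 686 and 582 to 1492, 1511 and 1401, by 1.15 ± 0.17 on the log2 scale (adjusted p = 6.06e-08). *Ddit4*, an inhibitor of mTORC1 signalling, had 5600, 6065 and 4684 at 72h and 11037, 11401 and 10258 at 80h. *Adm*, which encodes the vasodilator peptide adrenomedullin, was low throughout, with 14.9, 13.0 and 3.86 at 72h and 33.2, 32.9 and 19.3 at 80h (log2 1.48 ± 0.45, adjusted p = 0.017). The remaining DEGs of the list were *Vegfa*, *Bnip3l*, *Egln1*, *Egln3*, *Ankrd37*, *Pdk1*, *Ndrg1*, *P4ha1*, *Higd1a*, *Ero1l* and *Ak4*. The transcript of *Hif1a*, the oxygen-regulated HIF subunit, had a log2 fold change of -0.12 (adjusted p = 0.325). *Pam*, a peptide amidating enzyme, was at -0.18 (adjusted p = 0.00446), under the fold threshold.

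Of 26 glycolysis enzymes, 6 were DEGs and all 6 were higher at 80h, with a list median of 0.36. *Slc2a1* (chr4:119108711-119137983, plus strand), the main glucose transporter, had 6302, 5943 and 5027 at 72h and 11881, 11863 and 11390 at 80h. It was 2.04-fold higher (log2 1.03 ± 0.16, adjusted p = 5.46e-07). *Hk1*, a hexokinase that traps glucose in the cell, rose by 0.80 ± 0.09 and *Pfkp*, a phosphofructokinase at the committed step, by 0.82 ± 0.11. *Tpi1*, triosephosphate isomerase, rose by 0.74 ± 0.12 from 25722, 23506 and 22081 to 39541, 40270 and 39145. *Hk2* and *Pfkl* completed the 6.

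**Figure D2:**
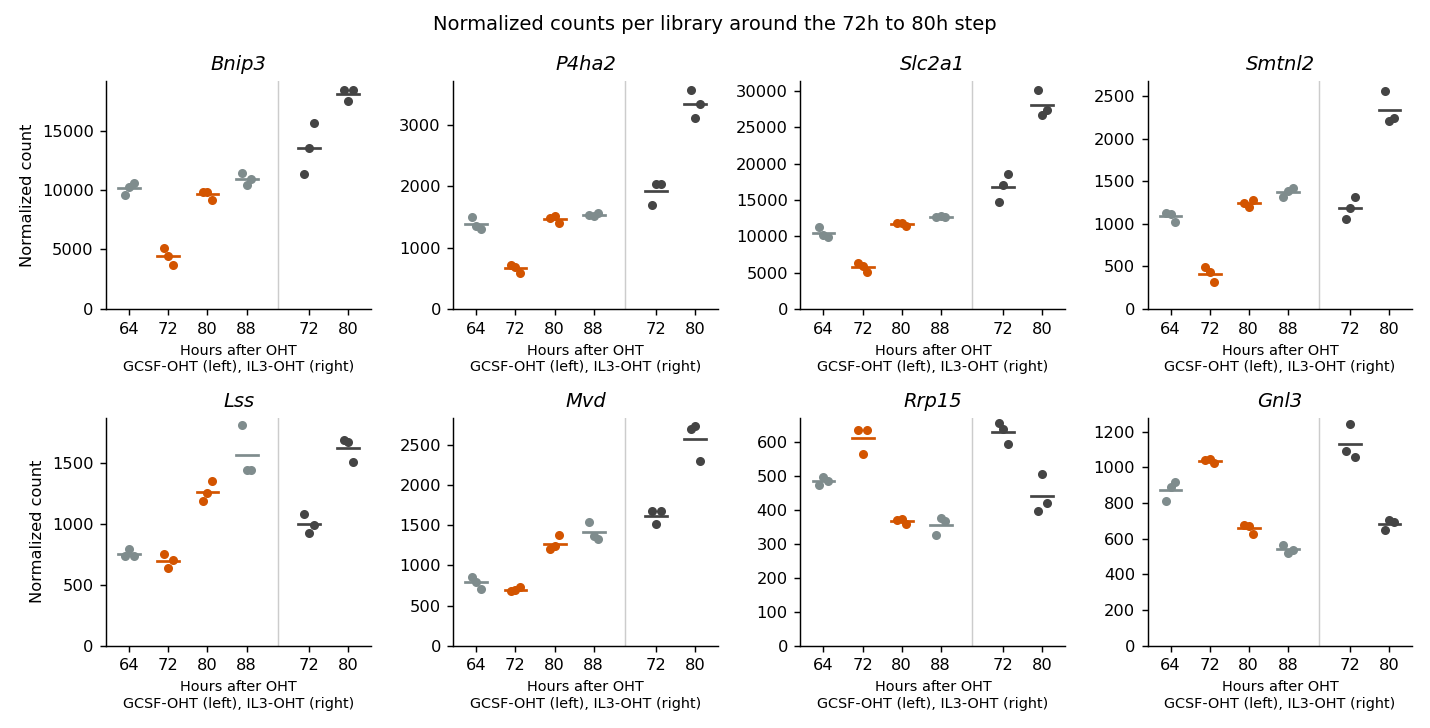
Normalized counts of 8 genes (y axes, from 0) in each library at 64h to 88h of GCSF-OHT and at 72h and 80h of IL3-OHT (x axes), with points for libraries and bars for group means. At 72h in GCSF-OHT, *Bnip3*, *P4ha2*, *Slc2a1* and *Smtnl2* sit below all other GCSF-OHT libraries shown, while *Lss* and *Mvd* step up at 80h and remain high at 88h.

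For the hypoxia and glycolysis genes, the 72h libraries stood below both neighbouring hours. In 20 of 23 hypoxia response genes (87%) and 16 of 26 glycolysis enzymes (61.5%), every 72h library lay below all 9 libraries of 64h, 80h and 88h, against 5.37% of all genes. *Bnip3* was 9616, 10269 and 10631 at 64h and 11419, 10405 and 10920 at 88h, so the levels at 64h and 80h were close. Set side by side, and sharing the 72h libraries, the hypoxia list had a median log2 fold change of -0.80 from 64h to 72h, with 17 lower DEGs of 23 (background 1.21% lower, 1.39% in either direction), and of 0.70 from 72h to 80h. From 80h to 88h it was 0.14, with no DEG by limma (background 0.23%, 0.144% higher and 0.0861% lower). Between 64h and 88h, which use none of the 6 libraries, no gene of either list was a DEG (background 1.24%), and the medians were 0.12 for both lists. Between 64h and 80h, 49 genes (0.281%) were DEGs, none of them from either list (0.0976% higher, 0.184% lower). Between 72h and 88h, 3.78% of genes were DEGs (2.48% higher, 1.3% lower), with 17 hypoxia, 10 glycolysis and 21 cholesterol genes higher and 25 ribosome biogenesis genes lower.

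**Figure D3:**
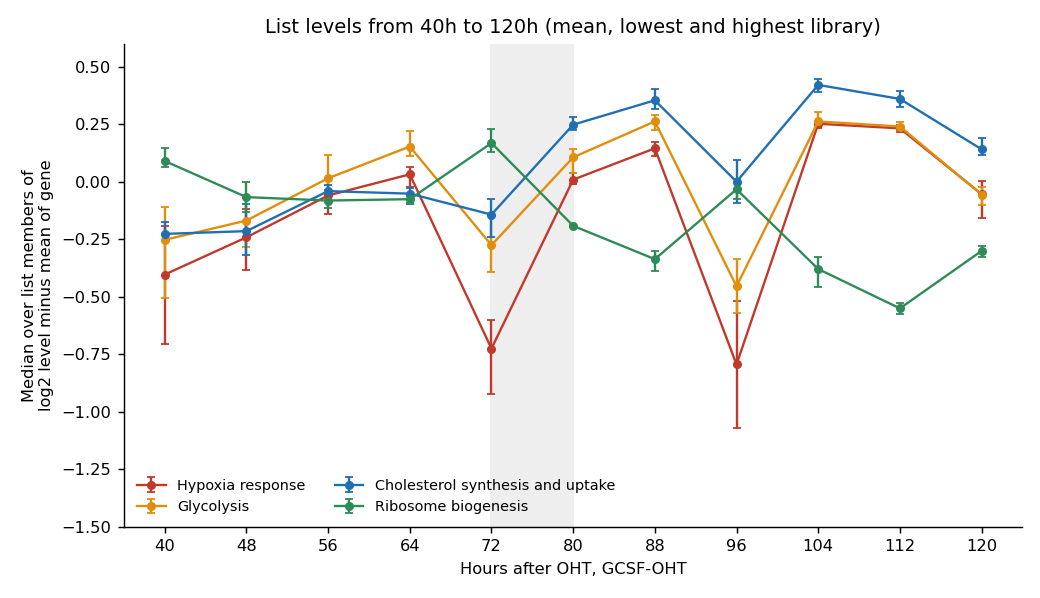
Level of 4 gene lists in GCSF-OHT libraries from 40h to 120h (x axis, hours), as the median over list members of the log2 normalized count minus the mean of that gene over all OHT libraries (y axis). Points are group means, bars span the lowest and highest library, and the shaded band marks 72h to 80h, with the hypoxia list at -0.73 at 72h, 0.01 at 80h and -0.79 at 96h.

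Cholesterol synthesis and uptake genes rose at 80h and were still high at 88h. The list stood at -0.14 at 72h, 0.25 at 80h and 0.35 at 88h, then at 0.001 at 96h (n = 2), 0.42 at 104h and 0.14 at 120h, on the log2 scale against the mean of each gene over all OHT libraries. Of 41 members, 10 were DEGs, all higher, with a list median of 0.39. *Lss* (chr10:76531588-76557138, plus strand), lanosterol synthase, had 756, 635 and 704 at 72h and 1191, 1259 and 1351 at 80h, a 1.82-fold rise (log2 0.86 ± 0.09, adjusted p = 2.57e-12). *Mvd* (chr8:122433601-122443422, minus strand), mevalonate decarboxylase, had 677, 693 and 729 at 72h and 1206, 1240 and 1377 at 80h. *Fdft1*, squalene synthase, rose by 0.85 ± 0.11 and *Fdps*, farnesyl diphosphate synthase, by 0.76 ± 0.09. *Sqle*, *Cyp51* and *Insig1* were also among the DEGs, as were *Scd2* and *Fads2*, which are fatty acid desaturases. The list also holds other genes of fatty acid synthesis and of sterol export, so its counts are not of cholesterol synthesis and uptake alone. At 64h *Lss* had 737, 794 and 734, close to its level at 72h (log2 difference -0.11, adjusted p = 0.576), and at 88h it had 1816, 1446 and 1443.

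In the comparison of 88h with 64h, which shares no library with the step, 17 of the 41 cholesterol genes were DEGs, all higher, where the background for higher DEGs was 0.678%. All 10 DEGs of the step on this list were among them, *Scd2* and *Fads2* included. Of the genes that rose at the step, 18 (8.49%) were also higher at 88h than at 64h, which is 15.3% of the genes called higher there. Of the 71 that fell, 7 (9.86%) were also lower, 7.14% of 98, where the background was 0.563%. At 96h (n = 2) *Lss* was between 785 and 1103, below its libraries at 80h, and at 104h it was between 1341 and 1510.

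Ribosome biogenesis factors fell. Of 69 members, 8 were DEGs, all lower at 80h (background 0.408%), and the median log2 fold change was -0.35. By adjusted p alone 53 were lower, beside 658 of all 17414 genes tested. *Rrp15* (chr1:186720978-186749358, minus strand), a processing factor of the large ribosomal subunit, had 634, 566 and 636 at 72h and 368, 373 and 359 at 80h (log2 -0.73 ± 0.09, adjusted p = 4.52e-10). *Gnl3* (chr14:31012433-31019152, minus strand), which encodes nucleostemin, a GTP-binding protein of the nucleolus, had 1044, 1048 and 1023 at 72h and 677, 674 and 627 at 80h, 1.58-fold lower. *Dkc1*, the pseudouridine synthase of small nucleolar RNA complexes, fell by 0.67 ± 0.09 on the log2 scale and *Grwd1*, a biogenesis and histone-binding factor, by 0.66 ± 0.13. Every 72h library lay above all 9 libraries of 64h, 80h and 88h for 51 of 69 members (73.9%), against 4.36% of all genes. The list median was 0.25 for 72h against 64h (1 higher DEG, background 0.178%), -0.16 for 88h against 80h and -0.26 for 88h against 64h. Of the 12 largest falls, some of which lie outside the list, *Polr3d*, a subunit of RNA polymerase III, had 95.65, 142.3 and 117.8 at 72h and 60.96, 67.85 and 58.99 at 80h, and *Trmt61a*, a tRNA methyltransferase, had 356.6, 319.1 and 345.8 and then 213.4, 202.5 and 208.5. The 79 genes for cytosolic ribosomal proteins held no DEG, with 0 higher and 0 lower by adjusted p alone.

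**Figure D4:**
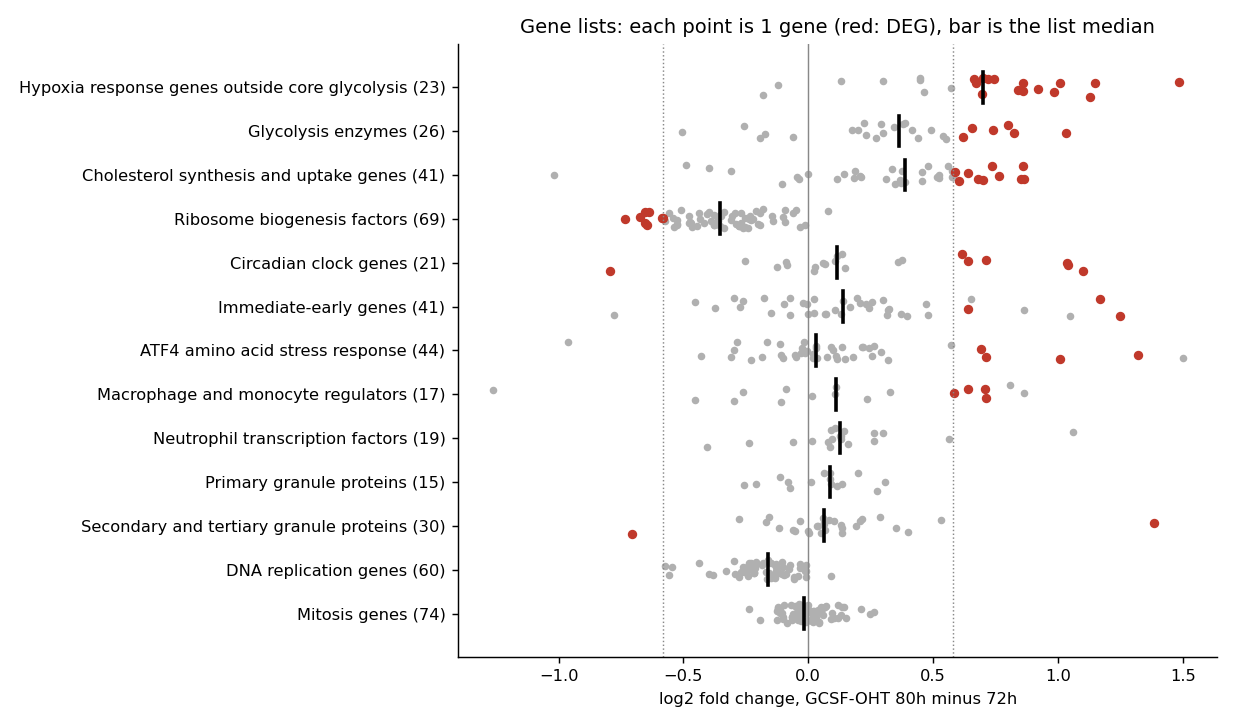
Log2 fold change of 80h over 72h in GCSF-OHT (x axis) for the members of 13 gene lists (rows, with the number tested), where each point is 1 gene, red points are DEGs, black bars are list medians and dotted lines mark 0.58 in either direction. The hypoxia list is centred at 0.70, the ribosome biogenesis list at -0.35, and the mitosis list at -0.02.

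The strongest changes among well expressed genes were outside these lists. *Smtnl2* (chr11:72389164-72411713, minus strand), a smoothelin-like protein, had 491, 437 and 311 at 72h and 1242, 1204 and 1284 at 80h, 3.06-fold higher (log2 1.61 ± 0.26, adjusted p = 6.9e-07). At 64h it stood at 1134, 1122 and 1025. *Atp7b* (chr8:21992785-22060305, minus strand), the copper exporter mutated in Wilson disease, rose 3.06-fold, from 122.6, 138.6 and 95.62 to 391, 371 and 326, and had 349, 315 and 326 at 64h. For both genes the 72h libraries lay below those of 64h and 80h. *Aldh1l2*, a mitochondrial folate enzyme induced by ATF4, rose by 1.32 ± 0.24, and *Nos2*, the inducible nitric oxide synthase, by 1.16 ± 0.24. *Bcar1*, *Mgarp*, *Maff*, *Rhobtb1* and *Fosl1* rose by 1.17 to 1.29. *Lars2*, the mitochondrial leucyl-tRNA synthetase, had 5593, 3819 and 6794 at 72h and 10638, 13482 and 11856 at 80h (log2 1.18 ± 0.26, adjusted p = 0.00035).

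Among the falls, *Sco2*, an assembly factor of cytochrome oxidase, had 107.7, 111.6 and 103.3 at 72h and 60.96, 31.93 and 64.08 at 80h. *Dctd*, deoxycytidylate deaminase, fell from 176, 190 and 180 to 95.1, 90.8 and 97.7 and had 69.6, 76.2 and 66.9 at 88h. *Serpinb9e*, a granzyme inhibitor family member, fell by 0.93 ± 0.19, *Gpatch4* by 0.68 ± 0.11 and *Ndufaf4*, an assembly factor of respiratory complex I, by 0.65 ± 0.14.

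Of 21 circadian clock genes, 6 rose and 1 fell, where the background was 1.22% higher and 0.408% lower. *Per1*, a repressor of the clock's feedback loop, had 503, 491 and 430 at 72h and 936, 950 and 1036 at 80h (log2 1.04 ± 0.16, adjusted p = 6.46e-07). *Ciart* rose by 1.10 ± 0.16 and *Rora*, an activator of *Arntl*, by 1.04 ± 0.27. *Nr1d2*, a repressor of the same gene, fell from 65.01, 68.84 and 55.05 to 44.33, 28.94 and 35.6. *Bhlhe40*, *Bhlhe41* and *Nfil3* were the other 3 that rose, while *Arntl* itself was at -0.12 (adjusted p = 0.83). Without replicate 3 of 72h, 3 clock genes rose rather than 6. Means at 64h, 72h and 80h were 189.6, 98.73 and 205.6 for *Ciart*, and 56.41, 25.59 and 51.06 for *Rora*. They were 706.7, 474.8 and 974.3 for *Per1*, and 6845, 4957 and 7685 for *Bhlhe41*. In each of these genes the 72h mean was thus below that of 64h as well as 80h. No clock gene was called higher at 80h than at 64h, or at 88h than at 64h. *Nr1d2* was lower at 88h than at 64h.

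The smaller counts that follow stand against the same background of 1.22% higher, and a single call in a list is near what that share gives. Lists share members, so some genes are counted in several, such as *Bhlhe40* and *Bhlhe41*, counted above among clock genes. All genes that rose at the step had a median log2 fold change of -0.69 from 64h to 72h, which shares the 72h libraries. From 64h to 88h their median was 0.22. At 64h, 72h and 80h, means were 922, 526 and 787 for *Id2*, 2205, 1235 and 2235 for *Ccng2*, and 1014, 542 and 932 for *Mt2*. They were 20.9, 22.5 and 39.1 for *Slc39a4*, and 27.8, 26.9 and 44.3 for *Cxcl2*. Of 44 genes of the ATF4 response to amino acid stress, 4 rose: *Aldh1l2*, *Ddit4*, *Sesn2* and *Trib3*. Of 41 immediate-early genes, *Maff*, *Fosl1* and *Ier3* rose. *Ccng2*, *Cdkn1b* and *Sesn2*, which restrain the cell cycle or mTORC1, were the 3 of 32 genes to rise in a list of CDK inhibitors, p53 targets and G1 cyclins. In the handling of metals, *Hmox1*, *Mt2* and *Slc39a4* were the 3 DEGs of 28 genes in the list, which does not hold *Atp7b*. In the list of macrophage and monocyte regulators, 4 of 17 rose, namely *Bhlhe40*, *Bhlhe41*, *Nab2* and *Id2*, and *Epor*, in the erythroid marker list, rose from 1.857, 4.651 and 5.795 to 9.236, 17.96 and 11.19. *Pim2*, *Tnfaip3*, *Isg20* and *H1f4* were the single DEGs among JAK-STAT targets, NF-kB factors and inhibitors, interferon-stimulated genes and replication-dependent histone genes, and *Cxcl2* rose beside *Vegfa* among chemokines and cytokines.

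Calls with the fold threshold among genes of the neutrophil programme were 2 in 5 lists, against a background of 1.63% of all genes in either direction. Smaller changes, significant by adjusted p alone, are counted below for each list. None of 15 primary granule genes was a DEG by limma, and by adjusted p alone 2 were higher and 2 lower. Of all 17414 genes tested, 1004 were higher and 658 lower by adjusted p alone. *Elane*, neutrophil elastase, had 148697, 149488 and 142722 at 72h and 156651, 165235 and 155966 at 80h (log2 0.12 ± 0.07, adjusted p = 0.34), and *Mpo*, myeloperoxidase, was at 0.31 ± 0.10 (adjusted p = 0.041), under the fold threshold. Among 30 secondary and tertiary granule genes, *Mmp8*, the neutrophil collagenase, fell from 195.9, 204.7 and 172.9 to 96.98, 136.7 and 119 (log2 -0.71 ± 0.24, adjusted p = 0.048). *Arg1* was called higher at no more than 5.09 normalized counts in any of the 6 libraries, most of them at or under the level of 3 reads. None of 26 late neutrophil genes, 8 NADPH oxidase subunits and 19 neutrophil transcription factors was a DEG. By adjusted p alone, 5 secondary and tertiary granule genes were higher and 1 lower, and 1 late neutrophil gene was higher and 0 lower. By the same measure, 2 oxidase subunits were higher and 0 lower, and 4 transcription factors were higher and 2 lower. *Cebpe*, the factor of granule maturation, was at 0.16 ± 0.10 (adjusted p = 0.41), *Gfi1* at -0.06 ± 0.06 (adjusted p = 0.69) and *Csf3r*, the GCSF receptor, at 0.11 ± 0.06 (adjusted p = 0.38). Other members changed by less than the fold threshold. *Mxd1*, on the transcription factor and late neutrophil lists, was at 0.56 ± 0.09 (adjusted p = 3.4e-07), and its groups did not overlap. Its mean was 3164 at 72h, 4671 at 80h and 6254 at 88h. *Cebpz* was at -0.41 ± 0.07 (adjusted p = 2.05e-06).

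The same 8 hours in IL3-OHT gave 813 DEGs (4.67%), 420 higher and 393 lower. Of the genes that rose in GCSF-OHT, 95 (44.8%) also rose in IL3-OHT, which is 22.6% of the 420 and against a background of 2.41%. Of the 71 that fell, 10 (14.1%) also fell, 2.54% of the 393, with a background of 2.26%. The medians in IL3-OHT were 0.44 for the hypoxia list (7 of 23 higher DEGs), 0.33 for glycolysis (4 of 26), 0.34 for cholesterol (6 of 41) and -0.36 for ribosome biogenesis (14 of 69 lower). *P4ha2* rose there by 0.80 ± 0.17 and *Slc2a1* by 0.75 ± 0.16, while *Bnip3* was at 0.44 ± 0.18 (adjusted p = 0.058).

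**Figure D5:**
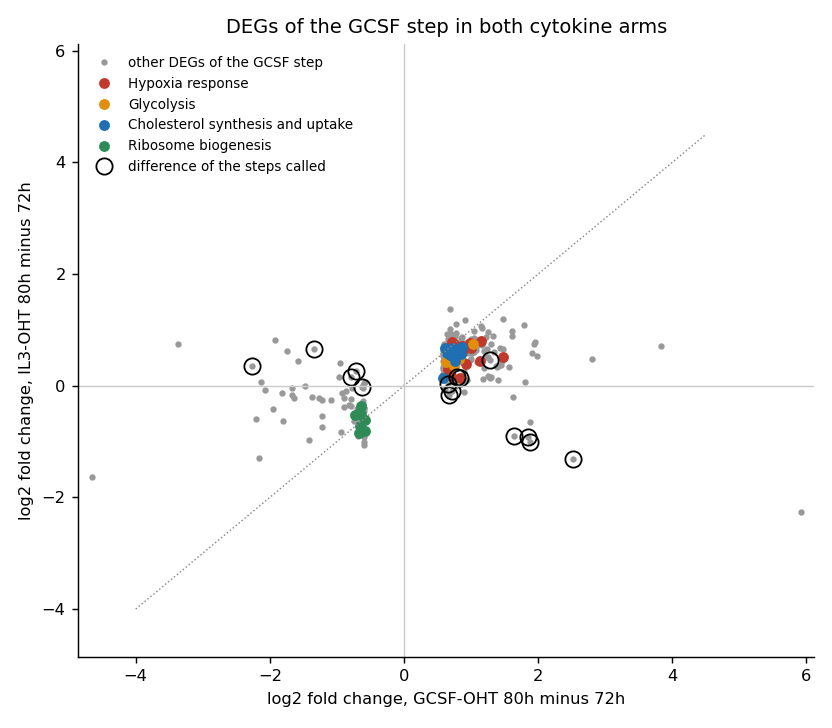
Log2 fold change of 80h over 72h in GCSF-OHT (x axis) and in IL3-OHT (y axis) for the 283 DEGs of the GCSF step, with list members coloured and genes whose steps differed by test circled. The dotted line marks equal changes, and the 15 circled genes are 10 that rose more in GCSF-OHT and 5 that fell more.

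The difference between the steps, tested as an interaction, was significant for 74 genes whose GCSF change was the higher (0.425%) and 44 whose GCSF change was the lower (0.253%), in all 0.678%. Of these, 10 had risen and 5 had fallen in GCSF-OHT. *Tpm4*, a tropomyosin, had 68.72, 47.44 and 56.98 at 72h and 96.98, 94.79 and 91.54 at 80h in GCSF-OHT, but 213.6, 289 and 278.2 and then 257, 231 and 234 in IL3-OHT (difference 0.82 ± 0.18, adjusted p = 0.0026). *Ak4*, a mitochondrial adenylate kinase and hypoxia target, rose by 0.84 ± 0.12 in GCSF-OHT and was at 0.14 ± 0.12 in IL3-OHT (difference 0.70 ± 0.16, adjusted p = 0.0051). *Septin3* fell from 86.4, 86.5 and 74.4 to 48.0, 48.9 and 44.8 in GCSF-OHT and was at 0.16 ± 0.16 in IL3-OHT. For *Bnip3* the difference was 0.69 ± 0.25 (adjusted p = 0.11) and for *Slc2a1* 0.28 ± 0.23 (adjusted p = 0.6), neither of them significant. No cholesterol, glycolysis or ribosome biogenesis gene differed between the steps by this call.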

How the data were processed

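Polyadenylated RNA was sequenced from 3 wells per hour, with 2 libraries at 96h, 112h and 152h in GCSF-OHT. Per the labels and the methods of the study, the authors quantified reads with Salmon on GRCm38 and deposited counts normalized by DESeq2 median-of-ratios scaling (signal, a library-scaled count) for 36255 genes in 165 libraries. How transcripts were summed to genes is not given in the sources used here. Whole reads were recovered for 100% of non-zero values (largest relative deviation 9.66e-15).

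The 17414 genes that reached 5 normalized counts in some library were tested on log2(value + 1) with limma 3.58.1 (1 mean per group over 159 libraries, empirical Bayes trend, Benjamini-Hochberg adjustment, two-sided). A fold change is on that scale, which understates changes of low genes. The fit left out IL3-OHT at 96h and 144h, which the study also excluded. Levels of lists over time were centred on all OHT libraries, those hours included. Log2 fold changes are given with their SE, with n = 3 per group. edgeR 4.0.16 and DESeq2 1.42.0 on the recovered reads were alternatives. Wells of the same plate are the replicates, so p-values measure the spread between wells. Gene positions are from GENCODE on GRCm38 and promoters from RefSeq (GRCm38.p6).

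Named genes were the 12 largest rises and 12 largest falls among DEGs with a mean of at least 100 in the higher group and groups that did not overlap, up to 4 DEGs per list, the 6 genes with the smallest adjusted p for the difference between steps, members of the granule, regulator and marker lists, and *Spi1*. Other list members were named after their values were seen. The samples, lists and rules were chosen with earlier results of these data known, and lists were described by counts and medians. The comparisons of 80h with 64h and of 88h with 72h and the GC correction were added after seeing the data. Not every list member that was called is reported here by name.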

Additional observations from a re-analysis of the deposited data

Results flagged for a closer look

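The 72h to 80h step differed between GCSF-OHT and IL3-OHT by the interaction test for 74 genes with the GCSF change above the IL3 change and 44 with it below (limma, adjusted p below 0.05 and an absolute log2 difference above 0.58). Among the genes named above, the GCSF step exceeded the IL3 step by 0.83 for *Mgarp*, 0.63 for *Mt2*, 0.82 for *Tpm4*, 0.70 for *Ak4* and 3.83 for *Gm6397*, in log2 units. The difference was -2.01 for *Pcp4l1*, -0.95 for *Septin3* and -0.97 for *Nmnat3*. *Gm6397* and *Pcp4l1* rest on low levels. *Gm6397* had 1.86, 0 and 4.83 at 72h and 7.39, 21.9 and 15.3 at 80h in GCSF-OHT, and *Pcp4l1* had 20.4, 14.9 and 12.6 and then 10.2, 3.99 and 4.07.

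The step also differed for proliferation genes. Of 60 DNA replication genes, 6 differed between the steps, and of 74 mitosis genes, 11 did, all with the GCSF change above the IL3 change, where the background for that direction was 0.425%. In IL3-OHT, 27 DNA replication genes and 19 mitosis genes were lower at 80h (background 2.26%), with list medians of -0.55 and -0.51. In GCSF-OHT no gene of either list was a DEG by limma (background 0.408% lower), and the medians were -0.16 and -0.02. By adjusted p alone 17 DNA replication genes were lower and 3 mitosis genes higher, beside 658 lower and 1004 higher of all 17414 genes tested. The count of mitosis genes did not exceed the share of all genes. Named after their values were seen, *Mcm10*, a replication initiation factor, was at -0.10 in GCSF-OHT and -0.87 in IL3-OHT (adjusted p of the difference 2.95e-07), and *Kif20a*, a mitotic kinesin, at -0.05 and -0.75 (adjusted p of the difference 1.73e-07). The cause was not tested.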

How the results depend on the processing

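The 283 DEGs stayed within 1.5 times under the other pseudocounts, filters, scaling, tests, the GC correction and a fit of only the groups compared, and reached at most 299 when 1 library was left out. Without replicate 3 of 72h, 152 genes were higher. Of 65 named calls, 19 were lost in the fit of only the groups compared, 46 for 80h against 64h and 3 to 8 with 1 library left out. The choice of 72h mattered most: 80h against 64h gave 49 DEGs, 17 higher and 32 lower, with 0 hypoxia, 0 glycolysis, 6 cholesterol, 0 ribosome biogenesis and 0 clock genes in the directions of the step. *Aldh1l2* (-0.24), *Mgarp* (-0.0428), *Bnip3* (-0.0788), *Id2* (-0.23), *Adm* (-0.48), *Rora* (-0.14), *Mt2* (-0.14), *Tpm4* (-0.38), *Ak4* (-0.0359) and *Trmt61a* (0.0074) had the opposite sign there. None of these differences was significant by limma (lowest adjusted p 0.0889, for *Tpm4*), so they show no change in the other direction. 88h against 72h gave 658, 431 higher and 227 lower, with 10 glycolysis, 21 cholesterol and 25 ribosome biogenesis genes. The cause was not tested. With 1 library left out, list calls ranged from 12 to 16 (hypoxia), 4 to 8 (glycolysis), 7 to 14 (cholesterol), 6 to 9 (ribosome biogenesis) and 3 to 6 (clock), and rises were 152 to 227 and falls 57 to 74. As percent of the genes tested, DEGs were 3.36% to 5.12% for the IL3 step, 0.385% to 0.936% for the difference between steps (0.385% without GCSF-OHT 72h replicate 2, 0.396% without IL3-OHT 80h replicate 1), 0.827% to 1.45% for 72h against 64h (0.827% without 72h replicate 3), 0.144% to 0.23% for 88h against 80h (0.144% without 80h replicate 3) and 0.689% to 1.45% for 88h against 64h (0.689% without 64h replicate 3). Counts were 12 to 21 and 6 to 10 for rises and falls shared with 88h against 64h. A fit of only the groups compared gave 0.695% for 72h against 64h, 0.121% for 88h against 80h, 0.718% for 88h against 64h and 3 shared falls. For 88h against 80h, no filter gave 0.385% and DESeq2 0.103%. DESeq2 was fitted to the 18 libraries of the 6 groups compared, and 5823 of its adjusted p-values were NA. A replicate block gave 284 DEGs, 70 of them falls, and same-numbered libraries of 72h and 80h deviated with correlations of -0.0253, 0.0261 and 0.00883, so numbers were not taken as pairs.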

Other observations

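The low level of hypoxia and glycolysis genes at 72h had a counterpart at 96h. The hypoxia list stood at -0.73 at 72h and -0.79 at 96h (n = 2 at 96h), and the glycolysis list at -0.28 and -0.45, in log2 units against the mean of each gene over the OHT libraries, while both lists were above 0 at 64h, 80h, 88h, 104h and 112h. Earlier hours were low as well, with the hypoxia list at -0.40 at 40h (lowest library -0.71) and -0.24 at 48h and the glycolysis list at -0.25 and -0.17, and at 120h they were at -0.05 and -0.06. The cholesterol list was also lower at 96h (0.001) than at 88h (0.35) and 104h (0.42). *Bnip3* had a mean of 4437 at 72h and 4768 at 96h against 9628 at 80h and 12977 at 104h, and *Slc2a1* 5757 and 6786 against 11712 and 13948. *Smtnl2* had 413 and 546 against 1243 and 1593, and 555 at 40h. Before OHT, at 0h in GCSF, *Bnip3* was between 1131 and 1411 (n = 3) and *Slc2a1* at 1144 ± 77.4 (SD, n = 3), below every later hour shown. Ribosome biogenesis was the mirror of this at 72h, at 0.17, and at -0.03 at 96h, between -0.34 at 88h and -0.38 at 104h. The 96h libraries were collected after the renewal of OHT and part of the medium at 88h, and the 72h libraries before it. Each hour was a separate plate, and whether these hours share any handling was not tested.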
